A study of Mus musculus with 2 samples.

Results

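The Fos and Jun genes encode the subunits of the transcription factor AP-1. The members described here are Fos, Fosb, Fosl1, Fosl2, Jun, Junb, Jund and Atf3, and they were found by matching the RefSeq accession of each array probe to these symbols. All 8 had a probe, and all 8 were well above background for both RNA samples on both arrays, out of 23597 genes and transcripts so measured (13313 with a gene symbol). The 8 genes were read by 10 probes, with 10 spots per array each for Fos and Jun and 1 spot per array for each of the other probes.

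Hippocampal RNA came from male C57BL/6J mice, aged 11 weeks and of 26 to 28 g body weight on arrival. The ASX group received, for 4 weeks after 1 week of acclimatization, powdered chow with 0.5% (w/w) of an astaxanthin powder, astaxanthin being a red carotenoid of the alga Haematococcus pluvialis that made up 2% of the powder. The control group received the same chow with 0% of that powder and a placebo powder. ASX and control RNA were hybridised together on 2 two-colour Agilent arrays of 1 slide: ASX RNA was in the Cy5 channel of array 1 and in the Cy3 channel of array 2, with control RNA in the opposite channel. The array titles give 4 mice and the design 4 replicates per diet, but each channel held 1 RNA sample and how the mice were combined was not given, so the arrays were treated as 1 replicate and no test of the diet was possible.

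AP-1 is a dimer of basic leucine zipper proteins. Jun proteins pair with one another or with Fos proteins, whereas Fos proteins need a Jun partner, and the dimers bind the AP-1 site TGACTCA or the cAMP response element (CRE) TGACGTCA. In the hippocampus Fos, Fosb and Junb are immediate early genes: calcium and MAP kinase signals acting on CREB and serum response factor at their promoters switch on transcription within minutes of neuronal activity, while Jund is expressed at a steadier level. Fos is widely used to mark recently active neurons.

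The promoters of 4 members that are induced by such signals are shown for the letters that such factors are known to bind. In the sequences below, taken from RefSeq (GRCm38.p6) and written 5′ to 3′ on the gene's strand, the 250 bases before the annotated start are given, with the CRE core TGACG or the CRE-like AP-1 site TGACATCA in capitals.
Fos: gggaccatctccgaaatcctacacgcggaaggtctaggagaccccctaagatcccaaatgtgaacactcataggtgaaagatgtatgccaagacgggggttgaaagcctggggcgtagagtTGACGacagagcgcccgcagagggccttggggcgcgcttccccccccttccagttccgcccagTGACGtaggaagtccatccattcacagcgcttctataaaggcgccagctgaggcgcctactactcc
Fosb: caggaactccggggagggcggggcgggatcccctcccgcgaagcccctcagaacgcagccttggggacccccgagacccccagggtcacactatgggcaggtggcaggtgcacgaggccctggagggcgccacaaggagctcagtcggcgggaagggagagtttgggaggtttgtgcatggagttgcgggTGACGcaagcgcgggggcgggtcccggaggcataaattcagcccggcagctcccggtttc
Junb: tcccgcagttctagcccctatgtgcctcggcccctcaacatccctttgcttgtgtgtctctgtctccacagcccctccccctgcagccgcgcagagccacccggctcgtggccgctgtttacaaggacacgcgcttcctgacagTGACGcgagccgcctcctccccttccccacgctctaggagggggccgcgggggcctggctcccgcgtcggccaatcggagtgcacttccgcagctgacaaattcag
Jun: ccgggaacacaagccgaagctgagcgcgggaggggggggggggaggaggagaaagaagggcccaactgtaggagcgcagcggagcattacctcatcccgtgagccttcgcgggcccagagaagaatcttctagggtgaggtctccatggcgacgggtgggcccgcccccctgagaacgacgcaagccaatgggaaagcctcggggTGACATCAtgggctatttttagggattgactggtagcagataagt
The windows lie at chr12:85473640-85473889 (plus strand), chr7:19310046-19310295, chr8:84978749-84978998 and chr4:95052223-95052472 (all minus strand) for Fos, Fosb, Junb and Jun in that order.

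RefSeq windows of 300 bases, with 50 bases after the start, were given for 7 members; Fosl1 had no entry. The motifs were searched on both strands, and positions count from 0 at the annotated start. The CRE core TGACG was in 4 of the 7 windows, those of Fos, Fosb, Junb and Atf3, and in 20.8% of all 32851 promoter windows. Fos held it at -129 to -125 and at -66 to -62, the second a short way before its TATA box TATAAA at -33 to -28, a motif in 13.6% of all windows. Fosb held it at -60 to -56, Junb at -106 to -102 and Atf3, on the other strand, at -7 to -3. Jun held TGACATCA at -45 to -38, as 3.62% of all windows did. The full CRE TGACGTCA, of which the CRE core is a part, the AP-1 site TGACTCA, the CArG box bound by serum response factor and the EGR site GCGTGGGCG were in 0 of the 7 windows and in 1.79%, 5.2%, 1.63% and 0.612% of all windows. These matches describe letters in a window and not bound sites. Sites more than 250 bases before the start lay outside the windows, so a count of 0 does not mean that a promoter lacks the motif.

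Fos was lower in ASX RNA on both arrays, by more than any other member. The ratio of the Fos signal in ASX over control RNA was 0.736 in the mean, that is, 1.36-fold lower with ASX, and the ratio of Jun, its main partner, was 0.988. Fosb, Atf3, Junb, Fosl1 and Fosl2 had ratios of 0.854, 0.879, 0.897, 0.935 and 0.937, closer to 1 than that of Fos, and Jund went opposite ways on the 2 arrays. By a size rule of at least 1.2-fold on each array, with the same diet higher on both, 1 of 8 members (Fos) was lower and 0 were higher; 0.314% of all genes and transcripts were lower by this rule and 1.44% were higher (0.331% and 0.233% of genes with a symbol). By the rule of at least 1.5-fold, 0 members were lower and 0 higher, as against 0.0212% and 0.0636% of all (0.03% each of genes with a symbol).

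**Figure D1:**
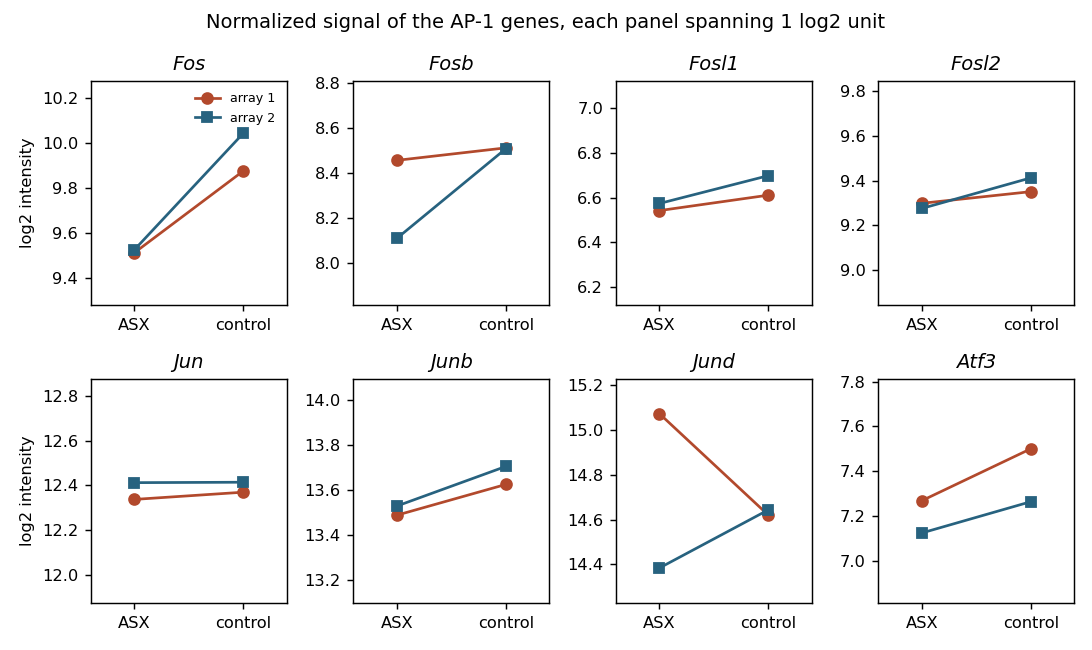
Normalized log2 intensity of each AP-1 gene (brightest probe) in ASX RNA (left) and control RNA (right) on array 1 (circles) and array 2 (squares); each panel spans 1 log2 unit around its own middle. Fos was lower in ASX RNA on both arrays (9.51 and 9.52, against 9.88 and 10.04 in control RNA), and Jund crossed.

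Fos, the inducible partner of Jun in AP-1, was read by 1 probe (A_52_P262219) on 10 spots per array. Its normalized log2 intensity, the mean of the spots, was 9.51 on array 1 and 9.52 on array 2 in ASX RNA, against 9.88 and 10.04 in control RNA. Both ASX values lay below both control values, and the ASX RNA gave nearly the same level whichever dye it carried. How many of all genes had such a gap is not given here, so it only describes the reading. The unnormalized spot signal (median of the 10 spots, backgrounds of 65 to 71) was 810 and 569 in ASX RNA, against 1289 and 1052 in control RNA. Unnormalized signals were higher in control RNA for Jun too (5751 and 3851 in ASX RNA, against 7272 and 5707 in control RNA), so these values give the reading and not a difference between the diets.

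The log2 ratio of ASX over control for Fos was -0.36 ± 0.048 on array 1 and -0.52 ± 0.067 on array 2 (SD over 10 spots, a technical error). The spots ran from -0.43 to -0.29 on array 1, with a median of -0.36, and from -0.59 to -0.38 on array 2, with a median of -0.54. All 10 spots were below 0 on each array, and on each array all 10 ASX spot intensities lay below the lowest control spot. The mean of the arrays was -0.44 with an SD between arrays of 0.11, and the part of the ratio that followed the dye, Cy5 over Cy3, was 0.08. The share of other probes with such spot counts is not given here. Among 193 probes with 10 spots well above background, 57 had a mean below 0 on both arrays. Of the 193, 2 others had a mean at or below that of Fos. They were those of Egr2 (-0.78), an early response transcription factor gene, and Cdkn1a (-0.58), which encodes p21, an inhibitor of the cell cycle. Over all genes and transcripts Fos stood 30th from the lowest ratio, in the lowest 0.127%.

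**Figure D2:**
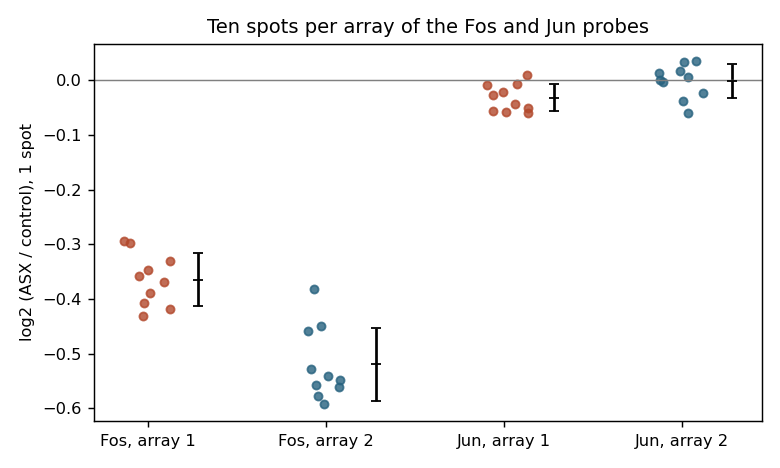
Log2 ratio of ASX over control for each of the 10 spots of the Fos probe and of the Jun probe, on array 1 and array 2; the black bar beside each column is the mean with the SD over spots. Every Fos spot lay below -0.29, while the Jun spots ran from -0.06 to 0.03.

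The scanner software gives each spot's log ratio an error and a p-value from its own model of 1 spot, which compares 2 RNA samples and not 2 diets. In the authors' deposited table the median log2 ratio of the Fos spots was -0.41 on array 1 and -0.57 on array 2, with an error of 0.21 on each. No Fos spot on array 1 and 7 of the 10 on array 2 had a deposited p-value under 0.01. For the other members no spot on either array had one in the authors' deposited table, and Fosb on array 2 came nearest.

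Fosb, whose spliced form ΔFosB builds up in neurons under repeated stimulation, had a log2 intensity of 8.46 and 8.11 in ASX RNA, against 8.51 and 8.51 in control RNA, on arrays 1 and 2. The control RNA read the same on both arrays, and the ASX RNA lay well below it on array 2 alone. The log2 ratio was -0.06 on array 1 and -0.40 on array 2, a mean of -0.23 with an SD between arrays of 0.24, as large as the mean itself. Fosb therefore missed the 1.2-fold rule on array 1 while passing its size on array 2. The probe was not matched to one of the splice forms.

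The Fos-related genes Fosl1 and Fosl2 encode Fra-1 and Fra-2, which lack the strong activation domain of Fos. Fosl1 was close to background. Its unnormalized signals were 108 and 109 in ASX RNA, against 125 and 119 in control RNA, over backgrounds of 66 to 69. Its log2 ratio was -0.07 on array 1 and -0.12 on array 2 (mean -0.10, SD between arrays 0.04). Fosl2 had a log2 intensity of 9.30 and 9.28 in ASX RNA, against 9.35 and 9.41 in control RNA, and a log2 ratio of -0.05 and -0.14 (mean -0.09, SD 0.06). Another, dimmer Fosl2 probe gave -0.12 and -0.12. All these values were below 0, by under 1.1-fold.

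Jun, the founding member of its family and the target of the JNK kinases, was read on 10 spots per array and was the most precisely measured gene of the group. Its log2 intensity was 12.34 and 12.41 in ASX RNA, against 12.37 and 12.41 in control RNA. The log2 ratio was -0.03 ± 0.025 on array 1 and -0.002 ± 0.031 on array 2 (SD over 10 spots), with 9 and 4 of the 10 spots below 0. The spots of Fos and of Jun did not overlap on either array: the highest Fos spot was at -0.29 on array 1 and -0.38 on array 2, and the lowest Jun spot at -0.06 on each. Over the 193 probes with 10 spots, the median SD of the spots was 0.049 on array 1 and 0.051 on array 2. The Fos ratio was several times this spot error on each array and the Jun ratio was not. Spot error leaves out what differs between arrays and dyes, so it does not show how firm a ratio is. For Fos the SD between arrays was 0.11, and the scanner's error of a spot was 0.21 on each array.

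Junb, an early response partner of Fos that is a weaker activator than Jun, had a log2 intensity of 13.49 and 13.53 in ASX RNA, against 13.62 and 13.70 in control RNA. Both ASX values were below both control values, and as for Fos the share of all genes with such a gap is not given. The log2 ratio was -0.14 on array 1 and -0.18 on array 2, a mean of -0.16 with an SD of 0.03 between arrays, below the 1.2-fold rule. The other Junb probe, well above background too, gave 0.14 on array 1 and -0.35 on array 2, opposite signs that average -0.10. The 2 probes thus differed in how they split between diet and dye: the part that followed the dye was 0.02 for the brightest and 0.25 for the other.

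Jund, the member with the steadiest expression, had a ratio that followed the dye. Its log2 intensity was 15.07 and 14.38 in ASX RNA, against 14.62 and 14.64 in control RNA. The log2 ratio was 0.45 on array 1 and -0.26 on array 2, so Jund was higher in the Cy5 channel on each array, by 0.36 in the mean. The diet part was 0.10 with an SD between arrays of 0.50, and gives no direction. Jund lay at the 97.1 percentile of brightness, and Jund and the other Junb probe had the largest dye parts of the 10 member probes.

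Atf3, a stress-induced member of the ATF family that pairs with Jun proteins and often represses, had a log2 intensity of 7.27 and 7.12 in ASX RNA, against 7.50 and 7.26 in control RNA. The ranges of the 2 RNAs overlapped across arrays, but ASX was below control on each. The log2 ratio was -0.23 on array 1 and -0.14 on array 2, a mean of -0.19 with an SD of 0.07. The gene was dim, at the 21.9 percentile of brightness.

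**Figure D3:**
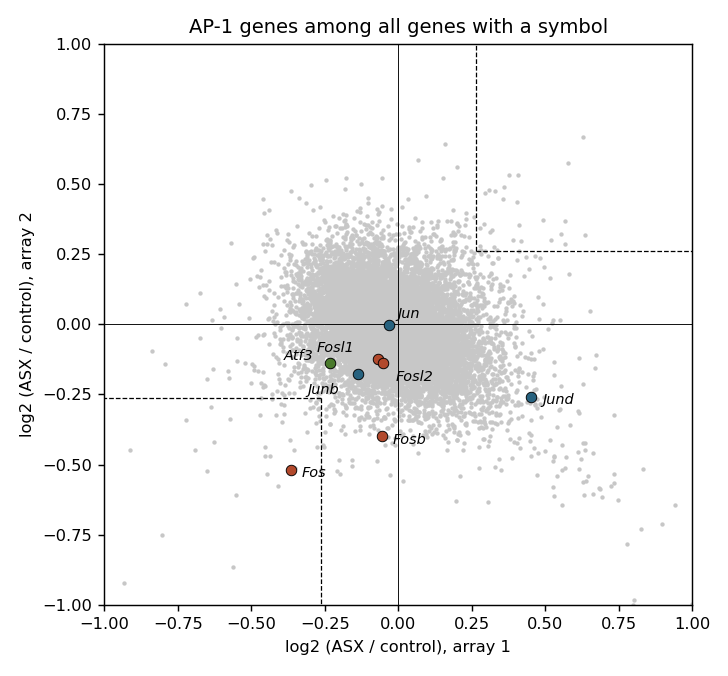
Log2 ratio of ASX over control on array 1 (x) against array 2 (y) for genes with a symbol (grey) and for the AP-1 genes (Fos genes red, Jun genes blue, Atf3 green); dashed lines bound the areas at least 1.2-fold lower or higher on both arrays, and points beyond 1 log2 unit are not drawn. Fos alone of the 8 lay in the lower area, 6 others lay below 0 on both arrays but outside that area, and Jund lay at 0.45 and -0.26.

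By sign, 7 of 8 members had ratios below 0 on both arrays and 0 of 8 had ratios above 0 on both, against 23% and 22.2% of all genes and transcripts, and 26.4% and 14.3% of genes with a symbol. With median centring in place of loess 6 of 8 were below 0 on both arrays, against 48.2% of all genes and transcripts, and with spike-in centring 7 of 8, against 69.8%. With loess the exception was Jund, and Jun counted among the 7 with spots on both sides of 0 on each array. The median log2 ratio over the 8 genes was -0.13, -0.06 on array 1 and -0.16 on array 2. Over all genes and transcripts the median was -0.004, and their mean ratios ran from -0.15 to 0.21 between the 5th and 95th percentiles. Fos, Fosb, Junb and Atf3 lay below that range, and Fosl1, Fosl2, Jun and Jund lay inside it. For genes with a symbol the same range was -0.162 to 0.128. Junb, at -0.157, lay inside that one, while Fos, Fosb and Atf3 lay below it. The members were chosen with earlier results of these data known, so these counts describe the group and are not evidence that it stands apart.

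The kinases and factors that act on the AP-1 genes showed no member past the 1.2-fold rule. By this rule 0.331% of genes with a symbol were lower and 0.233% higher, so an absence from lists of this size, here and in the next paragraph, says little. For the sign counts of these and later lists, the shares of genes with a symbol are 26.4% below and 14.3% above 0 on both arrays. Of 14 measured CREB and serum response factor genes and their cofactors, 3 were below 0 and 3 above 0 on both arrays, with a median of -0.02. Mef2a, an activity-regulated factor, had a mean log2 ratio of 0.23, Mef2d -0.16 and Mrtfb, a cofactor of serum response factor, 0.12. Of 22 kinases and small GTPases of the MAP kinase routes, 6 were below and 2 above 0 on both arrays, with a median of -0.03. Rps6ka2, an ERK-activated kinase gene, had a mean of -0.14, and Mapk11, a p38 kinase gene, had -0.10. Of 9 MAP kinase phosphatases, several of which are themselves switched on by MAP kinase signalling, 4 were below and 1 above 0 on both arrays, with a median of -0.06. Dusp6 and Dusp14 had -0.17 each, and Dusp1 had -0.12, from -0.02 and -0.22.

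Among 19 other basic leucine zipper genes, 6 were below and 3 above 0 on both arrays and none passed the rule (median -0.04). Nfil3, a repressor of circadian and immune genes, had -0.16 on array 1 and -0.50 on array 2, a mean of -0.33. Cebpd and Cebpb, C/EBP genes of the acute phase response, had means of 0.23 and 0.19 and were above 0 on both arrays. Of 10 genes for coregulators and turnover of Jun proteins, 0 were below and 2 above 0 on both arrays, with a median of 0.002. Gsk3b, a kinase that marks Jun for decay, had a mean of 0.13, Fbxw7, the ubiquitin ligase subunit that binds marked Jun, 0.07, and Hdac3, a corepressor enzyme, 0.07.

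**Figure D4:**
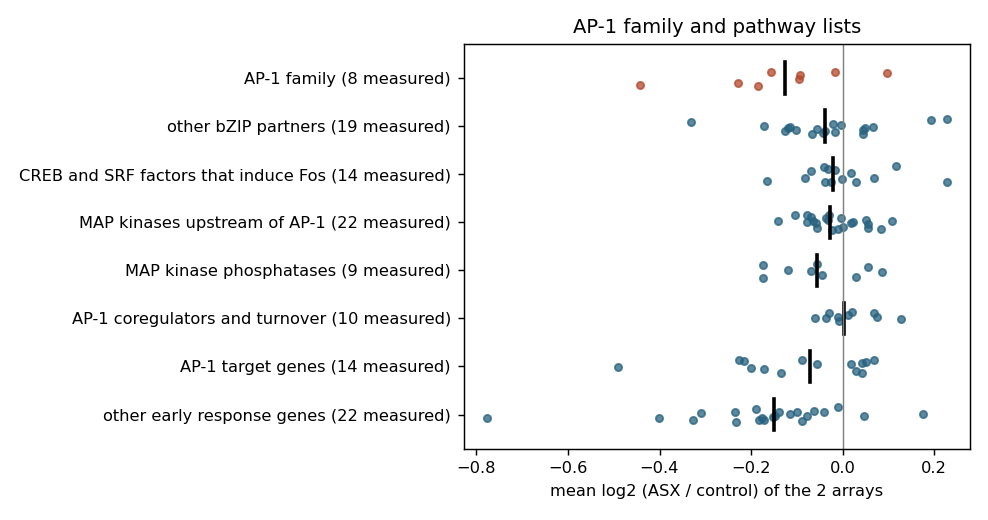
Mean log2 ratio of ASX over control for each measured gene (points) of the AP-1 family and of 7 pathway lists, with the list median as a black bar. The medians of the AP-1 family (-0.13) and of other early response genes (-0.15) lay lowest.

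Of 14 measured genes known as AP-1 targets in some tissue, 6 were below and 0 above 0 on both arrays, with a median of -0.07, and 1 passed the 1.2-fold rule. This was Penk, the enkephalin precursor gene, whose promoter AP-1 and CREB factors bind. Its log2 ratio was -0.41 on array 1 and -0.58 on array 2, a mean of -0.49. Penk is also a marker of striatal projection neurons. Of 9 such markers measured, 8 were below 0 on both arrays, against 26.4% of genes with a symbol. The summed normalized intensity of these 9 was 22434 to 23921 in ASX RNA, against 29141 to 29971 in control RNA. All 9 were well above background for both RNAs. Penk made up most of that difference: without it, a sum added after the data were examined, the other 8 gave 10496 to 10824 in ASX RNA, against 11762 to 12183 in control RNA. The part of these and the following cell types in the Fos and Penk ratios was not tested, and in RNA from whole tissue fewer cells of a type and less RNA per cell cannot be told apart. Of 7 measured thalamic and habenular markers, 4 were below and 0 above 0 on both arrays, with a median of -0.14, and Tnnt1, a troponin gene expressed in thalamus, passed the 1.2-fold rule at -0.57 and -0.34. Their summed intensity overlapped, at 115566 to 191176 in ASX RNA, against 91942 to 194267 in control RNA. Of 5 measured neutrophil and blood genes, 2 were higher past that rule, S100a9 (mean 1.27) and S100a8 (0.65), and 2 lower, the haemoglobin genes Hbb-bt (-0.53) and Hba-a1 (-0.46). The sum over these 5 was 8651 to 9197 in ASX RNA, against 11504 to 12835 in control RNA. Of 7 microglial markers, 3 were below and 1 above 0 on both arrays, of 8 endothelial and pericyte markers 3 and 2, of 7 astrocyte markers 0 and 2, of 7 oligodendrocyte markers 0 and 0, of 6 choroid plexus markers 4 and 2, and of 9 meningeal markers 0 and 7. Beside all these cell type counts, 26.4% of genes with a symbol were below and 14.3% above 0 on both arrays. Markers of hippocampal neurons were present in both RNAs, with 12 of 14 measured, among them Prox1 of dentate granule cells and Wfs1 and Fibcd1 of CA1. Of these 12, 0 were below and 4 above 0 on both arrays, with a median of 0.05. Their summed intensity was 157941 to 162522 in ASX RNA, against 148541 to 162611 in control RNA. Itpka, the brightest of them (16.25), had opposite signs, 0.31 on array 1 and -0.13 on array 2, and weighs heavily in that sum.

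Other early response genes, which share inducers with Fos, had a median of -0.15 over 22 measured. In this list 15 were below and 1 above 0 on both arrays, against 26.4% and 14.3% of genes with a symbol. The list median was -0.22 on array 1 and -0.06 on array 2, whereas that of the AP-1 family was -0.06 and -0.16. Past the 1.2-fold rule were Egr2, at -0.80 and -0.75, and Egr1, at -0.36 and -0.45, and no other of the list. By distance between the 2 log2 ratios, the 5 genes with a symbol nearest to Fos were Slc35d3 (distance 0.015), Penk (0.071), Egr1 (0.074), Foxp2 (0.084) and Noxred1 (0.090). Over 2 arrays of the same RNAs such likeness is a description of size alone. Of these, Egr1 and Penk were bright, while Slc35d3 and Foxp2, with mean log2 brightness of 7.73 and 7.29, were dim.

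Scaling moved the members' ratios. Without loess, centring each array on its median put the median of all genes and transcripts at -0.10, and centring on spike-in RNAs put it at -0.30. These centrings differ only by a constant on each array, so relative to these shifts both give the same values and count as 1 result. In it Fos was at -0.47, in the lowest 0.106% of genes and transcripts, and Junb at -0.27, while Atf3 was at -0.03 and Fosl1 at 0.14. With the scanner's own log ratios Fos had -0.49, Fosb -0.30, Atf3 -0.35 and Fosl1 -0.40, and 3 members (Fos, Fosl1 and Atf3) passed the 1.2-fold rule in place of 1, beside 288 lower and 793 higher genes and transcripts of all, against 74 and 339. Fos was the lowest member under these scalings, and its mean stayed between -0.57 and -0.43 in every setting with both arrays except spike-in centring, where it was -0.77.

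**Figure D5:**
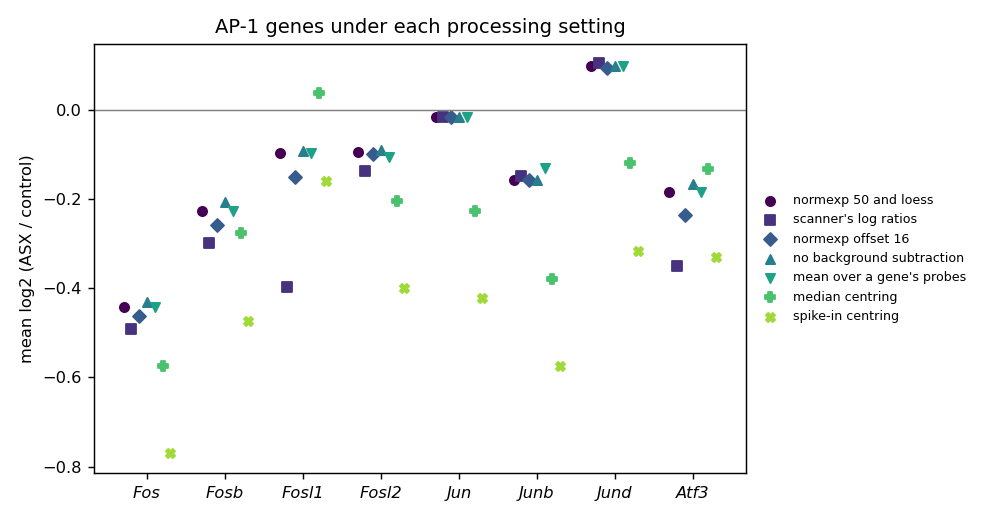
Mean log2 ratio of ASX over control of each AP-1 gene under 7 processing settings (symbols). Fos stayed below -0.42 in each, whereas Fosl1 and Jund changed sign with the scaling.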

How the data were processed

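Per the submitters' processing notes, the scans were processed in Agilent Feature Extraction 11.0.1.1. Per the file headers, the deposited spot intensity was the median pixel intensity of each channel with a local background, not normalized. The deposited log10 ratio of processed Cy5 over Cy3 and its p-value and error score came from that software, after background subtraction and dye normalization, per the file headers. The deposited value table held the same log10 ratios, not turned for the dye swap; its largest difference from the processed signals was 5e-08.

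In limma 3.58.1 under R 4.3.3, normexp (offset 50) corrected the background, and a loess fit within each array, in which control spots had weight 0, removed the dye curve. Of 45018 features, 1639 control spots and 3 non-uniform spots were left out, and 0 were saturated. Log2 ratios are given as ASX over control on both arrays, averaged over a probe's spots. Intensities per RNA are after loess and Aquantile. Of 41171 probes, 23372 had 1 symbol in RefSeq (GRCm38.p6), 0 several and 17799 none; 30071 were well above background on all spots, and a gene took its brightest such probe. Transcripts without a symbol were counted under their accession. Probe positions are left out because the array design used an older build.

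With 1 replicate there is no test of the diet, and errors are technical. The members and lists were chosen with earlier results of these data known. Named genes were all members, list genes past the 1.2-fold rule or otherwise the 3 of largest absolute ratio, and the 5 nearest to Fos; Cdkn1a and the hippocampal markers were named after their values were seen, and a list gene that the rule takes is not reported here. The steps were tested on simulated data with planted changes larger than that of Fos, scored by the 1.5-fold rule. That simulation did not cover the 1.2-fold rule and held no dye bias of single probes. The number of arrays limits the precision.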

Additional observations from a re-analysis of the deposited data

How the results depend on the processing

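No paired analysis was possible because the arrays were treated as a dye swap of 1 pair of RNA samples. The median of the 8 AP-1 genes, -0.13, was -0.22 when taken from the scanner's log ratios or from the value table, which repeats them, -0.22 with median centring and -0.41 with spike-in centring. It was -0.16 on array 2 alone (without replicate 1) and -0.06 on array 1 alone (without replicate 2). The number of members past 1.2-fold in the lower direction, 1, was 3 with the scanner's log ratios and the value table (1.22% of all genes and transcripts passed there). It was 5 with spike-in centring (23.8% of all), 2 on array 2 alone (3.6% of all) and 1 on array 1 alone (4.45% of all). In the higher direction it was 0, or 1 on array 1 alone (Jund), where 7.1% of all passed. Past 1.5-fold, 1 member (Fos) was lower with spike-in centring (0.144% of all) and 0 in all other settings. Members above 0 on both arrays were 0, but 1 (Fosl1) with median centring and 1 (Jund) on array 1 alone. Fosl1 turned to 0.037 with median centring. Jund turned to -0.12 with median centring, -0.32 with spike-in centring and -0.26 on array 2 alone, against 0.45 on array 1 alone. Fosb had -0.06 on array 1 alone. Aquantile, leaving out saturated spots and both looser brightness filters left the 8 ratios as they were. The cause of these shifts was not tested. Of 91 alternative values for the family counts and median, 79 were counted as kept. The kept values included 6 members below 0 on both arrays with median centring and 8 on array 2 alone, in place of 7. They also included the median of -0.06 on array 1 alone. Several settings left the ratios untouched or repeated another, so this count says little about how firm the results are. Signals near background limit Fosl1 most.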
